A study of Mus musculus with 5 samples.

Results

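The mouse genes described here build, secrete and transport immunoglobulin A (IgA), and there are 9 of them among the 55471 genes measured. They were chosen by symbol: Jchain, Igha, Ighm, Igkc, Mzb1, Derl3, Tnfrsf17 and Cd79a, which are transcribed in plasma cells and B cells, and Pigr, which is transcribed in the epithelium. All 9 symbols were found. RNA came from pieces of frozen colon of male C57BL/6 mice, 11 weeks old. Every mouse had TNBS colitis (trinitrobenzene sulfonic acid, a hapten that inflames the colon), and tissue was taken 3 days after induction. Vehicle treatment is represented by 2 libraries and propyzamide, a weedkiller known to act on plant microtubules, by 3. The question set by that design is how the compound changes the inflamed colon. Colon without TNBS was not analysed here. TNBS colitis is a short chemical injury, which limits it as a model of bowel disease.

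IgA is the main antibody of the gut lumen. Plasma cells under the epithelium secrete it as dimers in which the J chain, encoded by Jchain, bonds 2 antibody units. The polymeric immunoglobulin receptor, encoded by Pigr, binds J chain-containing IgA or IgM at the base of the epithelial cell, carries it across the cell and is cleaved at the surface, leaving its outer part on the antibody. The antibody supply and its transporter thus come from different cells. In tissue RNA, fewer cells of a type and less RNA per cell cannot be told apart.

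The heavy chains of IgA and IgM each exist in a secreted form, made by plasma cells, and a membrane form, which is the antigen receptor of B cells. The choice is made at the end of the transcript. If the splice site before the membrane exons is not used, the coding sequence runs on into a short tail whose second-last codon is a cysteine, through which heavy chains bond the J chain or each other. Both tails, read from GENCODE M21 transcripts (GRCm38), are shown because the counts below are divided between these forms. They are written 5′ to 3′ without the stop codon, with the cysteine codon in capitals.
Igha, chr12:113258771-113258829, minus strand: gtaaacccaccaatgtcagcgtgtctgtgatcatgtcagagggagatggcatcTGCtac
Ighm, chr12:113420870-113420928, minus strand: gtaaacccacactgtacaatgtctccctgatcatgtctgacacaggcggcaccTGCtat
Each tail has 59 bases.

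Promoters from RefSeq (GRCm38.p6), covering 250 bases before to 50 after the start, were found for 5 of the 9 members. Sequences are printed for the 3 of these whose levels did not overlap between the groups, namely Pigr, Cd79a and Derl3. Capitals mark the letters CACGTG (an E-box, the site type bound by upstream stimulatory factors) in Pigr, GAGGAA (a PU box, the site type of PU.1 and Spi-B) in Cd79a, and CCAAT boxes, an E-box and an ERSE in Derl3. The ERSE, or ER stress response element, is CCAAT and CCACG with 9 bases of any kind between them. Motifs were searched on both strands, so CCAAT may stand as ATTGG and GAGGAA as TTCCTC.
Pigr, chr1:130826434-130826733, plus strand: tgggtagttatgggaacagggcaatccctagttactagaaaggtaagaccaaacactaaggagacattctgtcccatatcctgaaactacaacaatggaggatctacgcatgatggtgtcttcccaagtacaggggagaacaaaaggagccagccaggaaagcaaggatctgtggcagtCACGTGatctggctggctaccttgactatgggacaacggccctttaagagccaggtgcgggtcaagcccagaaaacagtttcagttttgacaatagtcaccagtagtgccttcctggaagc
Cd79a, chr7:24897247-24897546, plus strand: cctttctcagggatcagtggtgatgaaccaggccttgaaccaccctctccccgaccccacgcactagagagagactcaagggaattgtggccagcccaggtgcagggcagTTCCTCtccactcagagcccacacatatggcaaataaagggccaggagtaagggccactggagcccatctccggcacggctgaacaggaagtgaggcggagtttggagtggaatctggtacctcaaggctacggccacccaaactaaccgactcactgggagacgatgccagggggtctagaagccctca
Derl3, chr10:75893148-75893447, plus strand: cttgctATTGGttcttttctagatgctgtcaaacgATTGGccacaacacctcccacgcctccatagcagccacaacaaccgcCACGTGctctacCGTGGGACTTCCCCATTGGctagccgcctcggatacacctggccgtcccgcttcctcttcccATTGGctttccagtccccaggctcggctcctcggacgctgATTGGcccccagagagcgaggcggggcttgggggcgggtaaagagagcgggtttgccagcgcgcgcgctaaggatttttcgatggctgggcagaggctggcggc
The Pigr E-box begins 71 bases before the start, and 7.15% of all 32851 promoters of this length hold such letters. Derl3, a gene of the unfolded protein response, holds its ERSE 156 bases before the start, against 0.119% of all promoters. It also holds 5 CCAAT boxes, 1 of them inside the ERSE, where 37.4% of promoters hold at least 1. The Cd79a PU box lies 140 bases before the start, and 28.3% of promoters hold that motif. The Jchain window held none of these motifs, nor the octamer ATGCAAAT (1.74% of promoters). These are letter matches only, and binding was not measured.

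Libraries held 1573700 to 2706885 estimated counts, of which 36.3% to 63.3% were ribosomal RNA-like or mitochondrial, so 1 count was worth 0.340 to 0.609 CPM (counts scaled to library size, here with TMM factors). A background was estimated from 1466 olfactory and vomeronasal receptor genes, a family mostly silent outside sensory tissue. Per kilobase of exon it came to 0.891 and 0.557 counts for vehicle, against 0.0573, 0.457 and 0.137 counts for propyzamide. Vehicle replicate 1 thus had the highest background and propyzamide replicate 1 the lowest, and the members' low counts are set beside the count this background predicts for the gene's exons. Colon epithelium was present throughout: the 12 epithelial marker genes summed to 7094 and 6155 CPM in vehicle and 8186, 6439 and 5915 CPM in propyzamide. Smooth muscle genes (9) summed to 492 and 3146 CPM against 5514, 8213 and 9221 CPM. Smooth muscle RNA thus also differed between the libraries, and the cause was not tested. The second index sequence of the libraries differed between the groups, so index and treatment cannot be told apart. The labels do not say whether any animal was shared, so p-values measure only the spread between these samples.

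Pigr was abundant in all 5 libraries while the plasma cell genes had few counts, at most 74 for any of them in a library. Per length, Pigr averaged 279 TPM (transcripts scaled for length and depth) in vehicle and 146 TPM in propyzamide. Igkc followed with 31.0 and 14.7 TPM and Igha with 9.73 and 14.1 TPM, and the other 6 members averaged at most 5.92 TPM in either group. Only Pigr, Igha, Igkc and Jchain had enough counts to be tested. None of these 4 passed the threshold in edgeR's quasi-likelihood test (adjusted p under 0.05), where 1.9% of the 12024 genes tested did, 0.69% higher and 1.21% lower. Their smallest unadjusted p was 0.241, and DESeq2 and limma likewise called 0 of the 4. On simulated data the edgeR test recovered 1.67% of 2-fold changes, so a change of that size would mostly be missed. Of all 9 members, 4 did not overlap between the groups, each lower in propyzamide (Ighm, Cd79a, Derl3 and Pigr), where 27.9% of the 37309 genes with any count did so. Among tested genes that share was 20.8%, and Pigr was the only tested member in it.

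**Figure D1:**
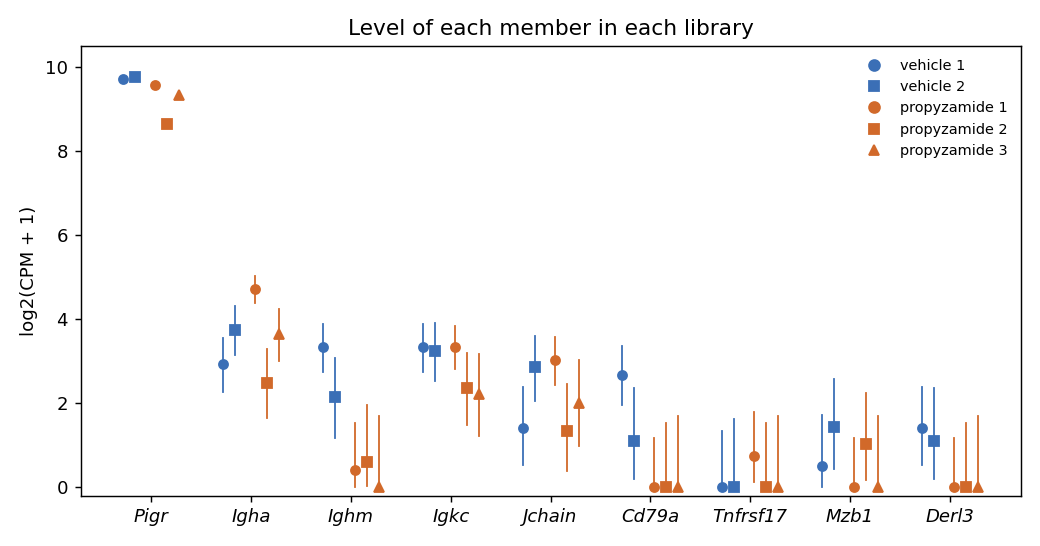
Level of each of the 9 members in each library on a log2(CPM + 1) scale, with blue for 2 vehicle and orange for 3 propyzamide libraries and bars for exact Poisson 95% intervals of the count. Pigr lies far above the others, Igha, Igkc and Jchain overlap between the groups, and Ighm, Cd79a and Derl3 lie lower in every propyzamide library.

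Igha, which encodes the constant region of the IgA heavy chain (chromosome 12, 113254830 to 113260236, minus strand), had 16 and 22 counts in vehicle and 74, 9 and 19 in propyzamide. That is 6.62 and 12.5 CPM against 25.2, 4.62 and 11.6 CPM. The groups overlapped, with propyzamide replicate 1 the highest and replicate 2 the lowest of all 5. The mean was 9.55 ± 4.15 CPM (SD, n = 2) in vehicle and 13.8 ± 10.4 CPM (SD, n = 3) in propyzamide. The log2 fold change was 0.57 ± 0.67 (SE; edgeR adjusted p = 0.710), and -0.28 without propyzamide replicate 1. Background predicted 2.38 and 1.49 counts in vehicle and 0.153, 1.22 and 0.365 in propyzamide, so IgA transcripts stood above it in each library.

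Igkc encodes the constant region of the kappa light chain, which pairs with any heavy chain (chromosome 6, 70726435 to 70726966, plus strand). It had 22 and 15 counts in vehicle against 27, 8 and 6 in propyzamide, or 9.10 and 8.51 CPM against 9.18, 4.11 and 3.65 CPM. Propyzamide replicate 1 was at the vehicle level and the other two propyzamide libraries were lower. The log2 fold change was -0.60 ± 0.65 (SE; edgeR adjusted p = 0.683). Background predicted at most 0.474 counts in a library.

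Jchain (chromosome 5, 88519809 to 88527891, minus strand) had 4 and 11 counts in vehicle and 21, 3 and 5 in propyzamide. Means were 3.95 ± 3.24 CPM (SD, n = 2) and 3.91 ± 2.90 CPM (SD, n = 3), and the log2 fold change was 0.07 ± 0.92 (SE; edgeR adjusted p = 0.980). The estimate was -0.65 without vehicle replicate 1. The spliced coding transcript took 2.47 and 3.89 of the vehicle counts and all 21, 3 and 5 of the propyzamide counts. The rest of the vehicle counts, 1.53 and 7.11, were assigned to a transcript that retains an intron. Over all exons of the gene, the retained intron included, background predicted 2.24 and 1.40 counts in vehicle and 0.144, 1.15 and 0.344 in propyzamide. Spliced Jchain in vehicle and Jchain in propyzamide replicate 2 were thus within a few counts of it. Background for the spliced transcript alone was not computed.

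Ighm encodes the IgM heavy chain, used by naive B cells and by IgM plasma cells (chromosome 12, 113418558 to 113422730, minus strand). It had 22 and 6 counts in vehicle and 1, 1 and 0 in propyzamide. Every propyzamide library was below both vehicle libraries. Vehicle replicate 1 alone held 22 of the 28 vehicle counts. Over the groups, the scaled level in vehicle was 21.9 times that in propyzamide, with an exact 95% interval from counting of 5.52 to 189. Background predicted 2.73 counts in vehicle and 1.23 in propyzamide, so the 2 propyzamide counts were at background.

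Cd79a encodes a signalling chain of the B cell receptor (chromosome 7, 24897381 to 24902197, plus strand). It had 13 and 2 counts in vehicle and 0 in each propyzamide library, where background predicted 2.11 and 0.948 counts per group. Taking 3 counts over the propyzamide group as its floor (0.459 CPM), the pooled vehicle libraries were 7.81 times that floor. Their lower 95% counting limit was 4.37 times it, with background not removed and the spread between libraries left out. Vehicle replicate 2 alone had 1.135 CPM, with a lower counting limit of 0.137 CPM, under that floor. Vehicle replicate 2, with 2 counts against 0.812 predicted, was near background, so the difference rests largely on vehicle replicate 1. Neither Ighm nor Cd79a passed the filter on low counts. In an edgeR fit without the filter, where 3.56% of 37309 genes passed and the median of all genes was -1.14, they were the 2 members that passed. Ighm had a log2 fold change of -4.03 (adjusted p = 0.0281) and Cd79a of -5.78 (adjusted p = 0.0367). In the fit without vehicle replicate 2, where Ighm passed the filter, its edgeR adjusted p was 0.297.

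Mzb1 and Derl3 serve antibody folding: Mzb1 encodes a chaperone of the endoplasmic reticulum found in plasma cells, and Derl3 a part of the channel that removes misfolded proteins. Mzb1 had 1 and 3 counts in vehicle and 0, 2 and 0 in propyzamide, against 1.76 and 0.790 predicted by background per group. Derl3, whose promoter is printed above, had 4 and 2 counts against 0, 0 and 0. Its 6 vehicle counts compare with 2.89 predicted by background, and of the 4 in vehicle replicate 1, none was assigned to the coding transcript. Vehicle, pooled, was 3.13 times the floor of 3 counts and its lower 95% counting limit 1.15 times it, with background not removed. Tnfrsf17 encodes BCMA, the receptor through which long-lived plasma cells receive survival signals. It had 0 counts in both vehicle libraries and 2, 0 and 0 in propyzamide. A difference in Mzb1 or Tnfrsf17 was not detectable at this depth.

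**Figure D2:**
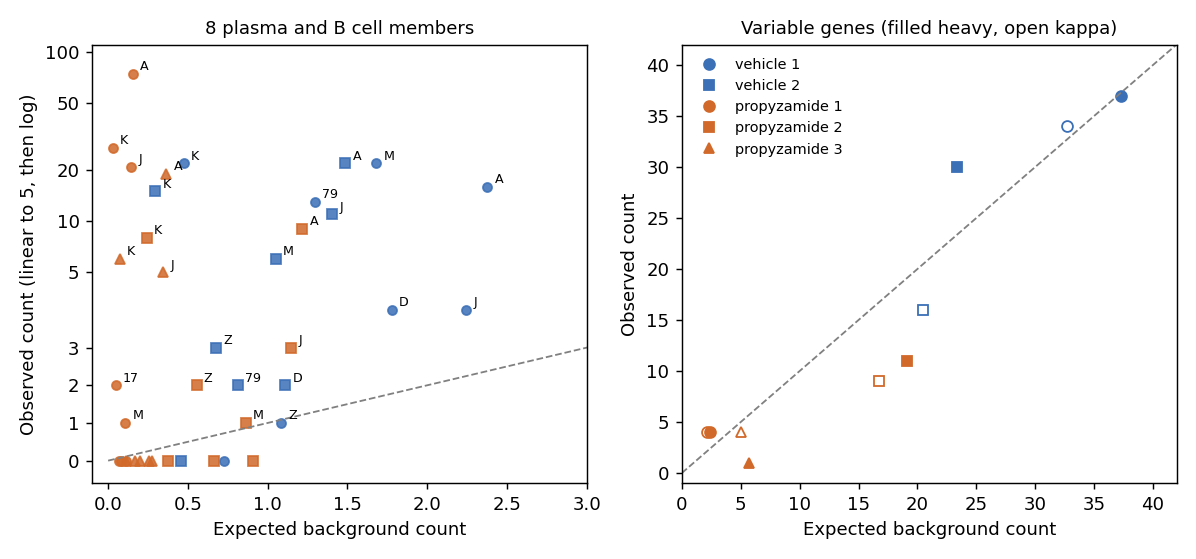
Left, observed count against the count predicted by background for the 8 plasma and B cell members in each library (A Igha, K Igkc, J Jchain, M Ighm, 79 Cd79a, Z Mzb1, D Derl3, 17 Tnfrsf17; counts of 0 are unlabelled, and the vertical axis is linear to 5 and logarithmic above). Right, the same for summed variable genes of the heavy and kappa chains. The dashed line is equality, near or below which the variable genes lie while Igha and Igkc lie far above it.

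Isotype composition is described by shares that were chosen after the values were seen and are given without a test. Igha took 23.5% and 61.1% of all heavy-chain constant counts in vehicle (16 of 68 and 22 of 36). In propyzamide it took 96.1%, 81.8% and 90.5% (74 of 77, 9 of 11 and 19 of 21). Background was not removed from these shares. Over the 12 constant genes, light chains included, it predicted 17.1 and 10.7 of 105 and 57 counts in vehicle. In propyzamide it predicted 1.1, 8.8 and 2.6 of 104, 25 and 28 counts. No light-chain gene had more than 0.545 of these predicted counts in a library, so most fell on the heavy chains. Background thus weighs more in the 68 and 36 heavy-chain counts of vehicle. How far it accounts for the gap between the groups was not tested. The groups did not overlap, but the Wilson 95% interval of the second vehicle library, 44.9% to 75.2%, met those of propyzamide replicates 2 (52.3% to 94.9%) and 3 (71.1% to 97.4%). Among the other heavy chains, Ighm, Ighg1 (7 counts against 1), Ighg2b (6 against 0) and Ighg2c (5 against 0) were lower in every propyzamide library, as were 27.9% of all genes with a count. Background predicted 3.75, 3.88 and 1.92 vehicle counts for those 3 IgG genes, so they were near it. Ighd (9 counts against 1), Ighg3 (10 against 3) and Ighe (1 against 0) overlapped between the groups. Ighm made up 57.9% and 21.4% of Ighm and Igha together in vehicle, against 1.33%, 10% and 0% in propyzamide, where 0 of 19 counts allows a share of up to 15.8%. Lambda constant genes took 40.5% and 28.6% of light-chain counts in vehicle, and 0%, 42.9% and 14.3% in propyzamide, with overlap.

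The transcripts divided each heavy chain into its forms. Secreted Igha, the form with the tail printed above, was assigned 10.9 and 20.8 counts in vehicle and 74, 9 and 19 in propyzamide. Membrane Igha was assigned 5.08 and 1.16 counts in vehicle and 0 in each propyzamide library. Ighm was mostly of the membrane form: 17.7 and 6 of its vehicle counts, against 4.31 and 0 of the secreted form. These are RSEM's divisions of a few reads between forms that share most exons. The membrane counts are also in the libraries of higher background, and the part of background in them was not tested.

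Variable genes encode the antigen-binding ends, and those of the heavy and kappa chains had counts near background or below it. Heavy-chain variable genes (115) had 37 and 30 counts in vehicle where background predicted 37.3 and 23.3, and 4, 11 and 1 in propyzamide where it predicted 2.4, 19.1 and 5.72. Kappa variable genes (100) had 34 and 16 counts against 32.7 and 20.4 predicted, and 4, 9 and 4 against 2.10, 16.7 and 5.01. In propyzamide replicate 2 both classes fell well below the prediction, and how well background is predicted in a single library was not tested. Lambda variable genes (3) had 0 counts in both vehicle libraries and 3, 1 and 0 in propyzamide. The 3 counts of propyzamide replicate 1, all of Iglv2, compare with 0.0652 predicted. These counts are too few to describe clonality.

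Pigr (chromosome 1, 130826684 to 130852249, plus strand) had 2024 and 1537 counts in vehicle and 2239, 777 and 1049 in propyzamide. That is 837 and 872 CPM against 761, 399 and 639 CPM. All propyzamide libraries were below both vehicle libraries, but replicate 1 only narrowly. Means were 855 ± 24.8 CPM (SD, n = 2) and 600 ± 184 CPM (SD, n = 3). The log2 fold change was -0.51 ± 0.42 (SE; edgeR adjusted p = 0.568), a difference within the spread between replicates. In TPM the groups overlapped, at 379 and 179 against 219, 85.9 and 133. Nearly all counts were of the full-length coding transcript, and background predicted at most 3.59 counts, so depth did not limit this gene.

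Pigr was also set against the epithelial content of the same library, the sum of Epcam, Cdh1, Krt8, Krt18, Krt19, Cldn7 and Vil1. Relative to these 7 genes, Pigr stood at 17.9% and 22.6% in vehicle and 13.0%, 8.83% and 14.7% in propyzamide, with no overlap. The log2 difference was -0.76, and the exact 2-sided permutation p was 0.2, the smallest that 2 against 3 samples allow. After adjustment over the 5 ratios tested it was 1. That separation rests on Krt8, a keratin and the largest term, at 1419 and 1456 CPM in vehicle and 2475, 2140 and 2126 CPM in propyzamide. In a comparison added after the data were seen, Pigr without Krt8 in the sum stood at 25.8% and 36.3% against 22.6%, 16.8% and 28.8%, and the groups overlapped (log2 difference -0.46). Against all 12 epithelial genes it stood at 11.8% and 14.2% against 9.30%, 6.19% and 10.8%, without overlap. That sum again includes Krt8, so it is no check on the part of Krt8 in the separation. Against Epcam alone, an adhesion protein of all epithelial cells, Pigr stood at 84.2% and 121% in vehicle and 86.2%, 42.6% and 122% in propyzamide, which overlap (exact permutation p = 1).

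The ratio of the plasma cell genes to their transporter overlapped between the groups. The 8 plasma and B cell members summed to 4.05 and 3.97 counts per 100 Pigr counts in vehicle, and to 5.58, 2.96 and 2.86 in propyzamide, a log2 difference of -0.15. Without the 3 immunoglobulin constant genes, the other 5 members stood at 1.09 and 1.17 against 1.03, 0.644 and 0.477, and the groups did not overlap. That separation rests on Cd79a, a B cell gene with 13 counts in vehicle replicate 1 and 0 in each propyzamide library. Background was not removed from these counts. Single genes gave differences of either sign. Igha stood at 0.790 and 1.43 counts per 100 Pigr counts in vehicle and 3.30, 1.16 and 1.81 in propyzamide (log2 difference 0.84, exact permutation p = 0.4). Jchain gave a log2 difference of 0.57 (exact permutation p = 0.6) and Igkc of -0.21 (exact permutation p = 1), and each was 1 after adjustment over the 5 ratios.

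**Figure D3:**
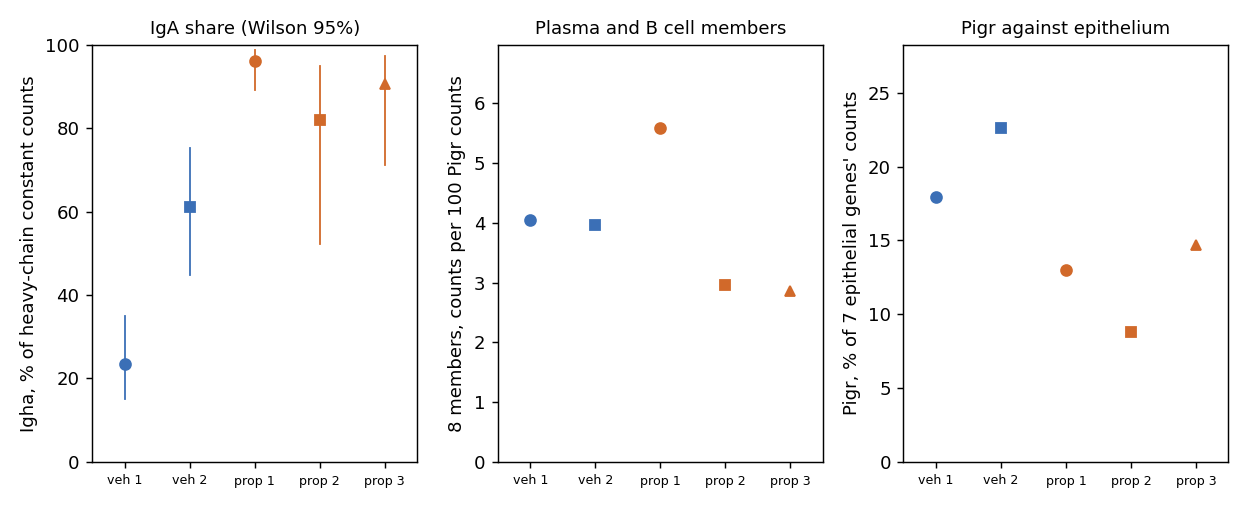
Within-library ratios in the 2 vehicle (veh, blue) and 3 propyzamide (prop, orange) libraries: Igha as a share of heavy-chain constant counts with Wilson 95% intervals (left), the 8 plasma and B cell members per 100 Pigr counts (middle), and Pigr as a percentage of 7 epithelial genes (right). The left and right panels separate the groups, from 61.1% to 81.8% and from 14.7% to 17.9%, the middle panel does not, and the right panel's separation is lost without Krt8. Background was not removed from these ratios.

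Other genes of IgA biology, in 8 lists, gave 1 call, where 1.9% of all 12024 genes tested passed. The call is thus not read as a result about these lists. Aldh1a2, which encodes the enzyme that makes the retinoic acid used in IgA switching and gut homing, had 5 and 4 counts in vehicle and 55, 47 and 60 in propyzamide. It rose by a log2 fold change of 3.57 ± 0.59 (SE; edgeR adjusted p = 0.0136). That call was lost without vehicle replicate 1 (adjusted p = 0.166) and without vehicle replicate 2 (0.0914), with log2 fold changes of 3.48 and 3.68. It was 1 of 3 tested genes of the switch and survival list, where background predicted 3.28 of its 9 vehicle counts. Tgfbr2, a TGF-beta receptor, had a log2 fold change of -0.56 (adjusted p = 0.563). In that list Tnfsf13, which encodes the plasma cell survival factor APRIL, had 46 and 27 counts against 19, 10 and 0 (log2 fold change -2.06, adjusted p = 0.182).

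**Figure D4:**
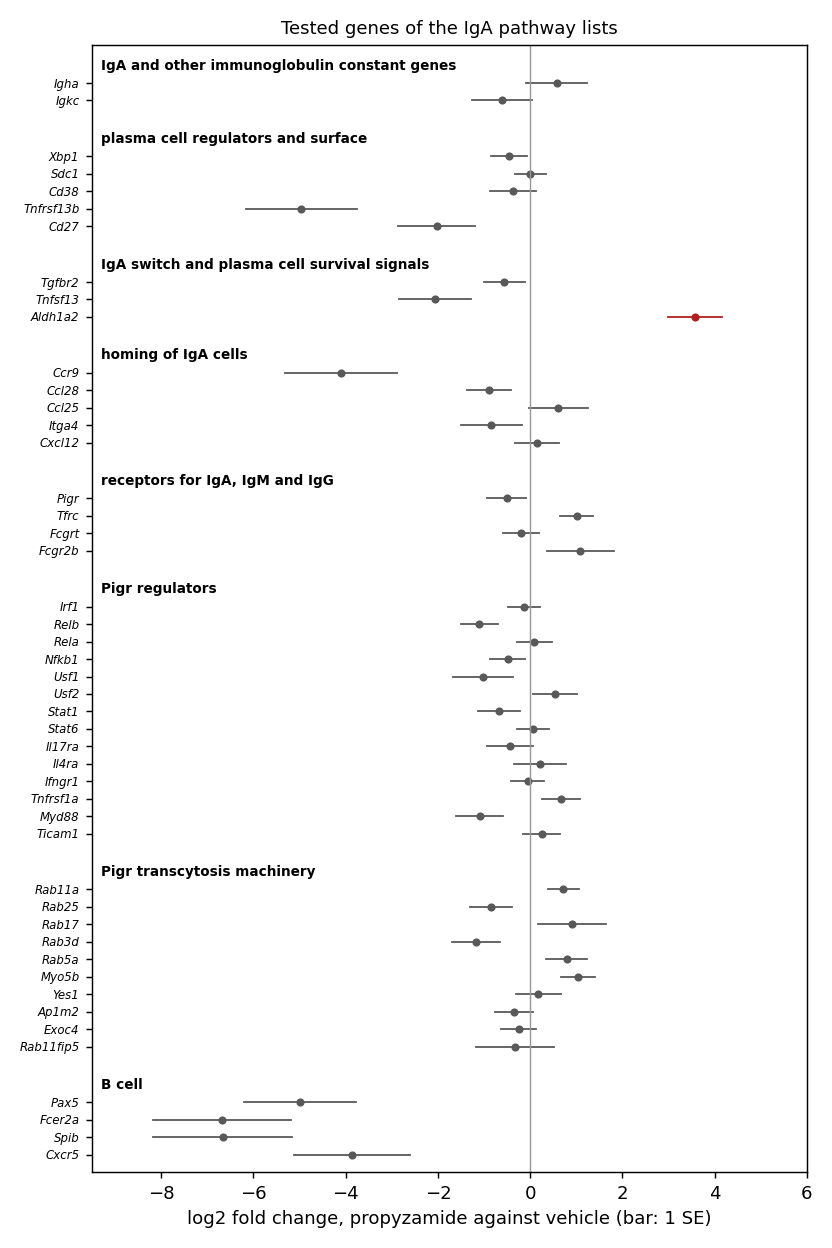
Log2 fold change (propyzamide against vehicle, points) with 1 SE to either side (bars) for the tested genes of 7 IgA pathway lists and the B cell list; red marks an adjusted p under 0.05. Aldh1a2 is the only red point, and the 4 B cell genes, Tnfrsf13b and Ccr9 lie farthest to the left without passing. Those farthest to the left passed the filter on low counts only through their vehicle counts.

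Among the plasma cell regulators and surface genes, 0 of 5 tested passed (median log2 fold change -0.46). Tnfrsf13b, the TACI receptor of B cells, came closest with 13 and 13 counts against 1, 0 and 0 (log2 fold change -4.96, adjusted p = 0.0514), where background predicted 4.11 vehicle counts. Cd27, a receptor of memory B cells, plasma cells and T cells, had 20 and 11 counts against 4, 2 and 5 (log2 fold change -2.02, adjusted p = 0.222). Xbp1, the transcription factor of the secretory programme, had 113 and 58.4 CPM against 81.6, 48.2 and 57.2 CPM, and Sdc1, a plasma cell surface marker that epithelium also expresses, had a log2 fold change of 0.00 ± 0.34 (SE). The antibody secretory machinery, active in every secreting cell, had 0 of 12 passing (median -0.07). Those of smallest p were Txndc5, a disulfide isomerase (-1.18, adjusted p = 0.322), Sec11c, of the signal peptidase (-0.69, adjusted p = 0.389), and Hsp90b1, a chaperone (0.61, adjusted p = 0.396). The constant genes had 2 tested and none passing. Over all tested genes the median was -0.02.

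For homing of IgA cells, 0 of 5 tested genes passed (median -0.84). Ccr9, the gut-homing receptor, had 13 and 13 counts against 0, 2 and 0 (log2 fold change -4.09, adjusted p = 0.0979), where background predicted 14.9 of the 26 vehicle counts and 6.67 in propyzamide. Ccl28, the epithelial chemokine that draws IgA cells to the colon, had 40.5 and 23.3 CPM against 26.2, 15.9 and 8.52 CPM, with overlap. Itga4, an integrin chain of gut homing, had a log2 fold change of -0.84 (adjusted p = 0.550). The receptors for IgA, IgM and IgG had 0 of 4 passing (median 0.40), among them Tfrc, the transferrin receptor, at 52.9 and 63.0 CPM against 91.4, 122 and 138 CPM (adjusted p = 0.155), and Fcgr2b, an inhibitory IgG receptor, with a log2 fold change of 1.09 (adjusted p = 0.470).

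Regulators of Pigr, the factors and cytokine receptors known to act on its transcription, had 0 of 14 passing (median -0.09). Relb, an NF-kB subunit, had 33.1 and 34.6 CPM against 15.6, 21.04 and 10.4 CPM (log2 fold change -1.10, adjusted p = 0.173). Next by p were Myd88, an adaptor of Toll-like receptors (-1.09, adjusted p = 0.282), and Tnfrsf1a, a TNF receptor (0.67, adjusted p = 0.422). Usf1 and Usf2, which bind E-boxes such as that in the printed Pigr promoter, had log2 fold changes of -1.01 and 0.53 (adjusted p = 0.451 and 0.613). The transcytosis machinery, which moves the receptor with its cargo, had 0 of 10 passing (median -0.04). Myo5b, the motor of recycling vesicles, had 46.3 and 41.4 CPM against 75.8, 122 and 71.8 CPM, and Rab11a 97.2 and 78.9 CPM against 138, 166 and 132 CPM. Both were higher in every propyzamide library, with edgeR adjusted p of 0.165 and 0.288. The share of all genes higher in this way was not counted. Rab3d, a small GTPase of secretory vesicles, went the other way with overlap, at 91.0 and 35.8 CPM against 45.5, 12.3 and 25.6 CPM (log2 fold change -1.18, adjusted p = 0.251).

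B cell markers were low in the same libraries as Ighm and Cd79a. The 17 marker genes, Cd79a among them, summed to 86.4 and 44.3 CPM in vehicle and 4.08, 6.16 and 10.4 CPM in propyzamide. As counts these were 209 and 78 against 12, 12 and 17, where background predicted 66.7 and 41.7 against 4.29, 34.2 and 10.2. Of the 17, 11 were lower in every propyzamide library and 8 were at 0 in that group, including Cd79b. Over all genes with a count those shares were 27.9% and 34.1%. Of the 4 tested none passed (median log2 fold change -5.83). All 4 passed the filter on low counts only through their vehicle counts, so that median does not describe the list. Fcer2a (-6.69, adjusted p = 0.0504), Spib (-6.67, adjusted p = 0.0508) and Pax5 (-4.99, adjusted p = 0.0521) came closest, with 25, 24 and 29 vehicle counts where background predicted 4.48, 4.15 and 12.8. Fcer2a passed in 7 of the 12 alternatives that gave it a value, Spib in 6 of 14, Pax5 in 4 of 12 and Tnfrsf13b in 7 of 14. Fits that gave a gene no value are left out of these tallies, among them that without vehicle replicate 1 for each of these genes. The tallies thus give no support for a difference. Follicle genes had 0 of 4 tested passing (median -1.12; 9 of 10 listed were found), with Clu at -1.72 (adjusted p = 0.115), S1pr2 at -2.01 (0.228) and Bcl6 at -0.52 (0.720). T cell genes summed to 51 and 48 counts against 17, 13 and 13, where background predicted 27.0 and 16.9 against 1.74, 13.9 and 4.15, and the 1 tested, Thy1, did not pass (-1.04, adjusted p = 0.566). Background itself was higher in both vehicle libraries than in any propyzamide library. In the fit with background subtracted, Spib and Tnfrsf13b did not pass, as in the fit reported, and Fcer2a and Pax5 had no value. The part of background in the B cell difference was not tested beyond that.

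Other cell types gave 1 call, beside the same 1.9% of all genes tested, so it is not read as a result about them. In the epithelial list, 1 of 12 passed: Cdx2, an intestinal identity factor, with 7 and 2 counts against 61, 79 and 23 (log2 fold change 3.54 ± 0.68, SE; edgeR adjusted p = 0.0274). It did not pass without vehicle replicate 1 (adjusted p = 0.166), vehicle replicate 2 (0.183) or propyzamide replicate 2 (0.0539). Cldn3, a tight junction protein (-1.19, adjusted p = 0.162), and Elf3, an epithelial transcription factor (-0.75, adjusted p = 0.302), were lower in every propyzamide library, like Pigr. Of all tested genes, 20.8% were. Macrophage and smooth muscle genes had 0 of 5 and 0 of 9 passing, with medians of 1.03 and 2.14. Of smallest p were C1qb (1.66, edgeR adjusted p = 0.313), Mrc1 (1.37, 0.410) and C1qc (1.03, 0.561) for macrophages. The remaining tested macrophage genes, C1qa and Csf1r, had log2 fold changes of 0.005 and 0.09. Propyzamide replicate 3 held 84 of the 124 C1qb counts of its group, and without it the log2 fold change was 0.335. For smooth muscle, Synm (2.50, edgeR adjusted p = 0.0503), Synpo2 (2.31, 0.0575) and Cnn1 (2.23, 0.0783) had the smallest p. Of 6 neutrophil genes only Ly6g was tested, and it did not pass (-2.08, edgeR adjusted p = 0.0835). S100a8 and S100a9 had 6 and 10 counts in vehicle against 6 and 4 in propyzamide, so Ly6g does not describe the list.

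The genes most like each leading member were found among 4494 tested genes of at least 20 CPM, by the root mean square difference of centred log2(CPM + 1) over the 5 libraries. Nearest to Jchain were Plec (0.24), Tbc1d2, Cdc42bpb, Ddx46 and Ctdsp1 (0.32). Nearest to Pigr were Clk3 (0.08), Atg101, Sema3b, Arrdc1 and Aup1 (0.11). Clk3 had 44.2 and 43.7 CPM in vehicle and 43.5, 19.0 and 32.9 CPM in propyzamide, with propyzamide replicate 2 lowest, as for Pigr.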

How the data were processed

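For each library the authors deposited RSEM output, whose columns hold every transcript's estimated count and its TPM, per the file headers. RSEM, kallisto and GRCm38 are named without roles or versions, per the submitters' processing notes. RNA was extracted with Trizol and libraries made by SMART-Seq2, per the labels' protocols. Not given in the sources used here are dose, colon segment and strand use in counting. Because RSEM splits reads between transcripts, similar, overlapping or antisense genes can share counts.

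Gene values (55471) are the rounded sums of the estimated counts of 142647 transcripts. Symbols were found for 99.4% of gene identifiers, and 99.6% were in GENCODE M21 (GRCm38), the source of coordinates. Genes were tested with edgeR 4.0.16 in R 4.3.3 (filterByExpr, TMM scaling, quasi-likelihood test, Benjamini-Hochberg adjustment over all genes tested, threshold 0.05), with the group as the only term. Transcript values of a member were given without a test. Ratios were tested with the exact permutation test (scipy 1.17.1). Background was the count per kilobase of exon over 1466 receptor genes. Intervals and floors (3 counts) cover counting error only; reads carry no molecular identifiers.

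The members and gene lists were chosen with earlier results of these data known. Named are all 9 members, up to 3 genes of smallest p and every gene past the threshold in each of 15 lists, and the 5 genes nearest to Jchain and to Pigr. Beyond that rule, Ighg1, Ighg2b, Ighg2c, Ighg3, Ighd, Ighe, Iglv2, Cd79b, Sdc1, Usf1, Usf2, Epcam, Krt8, C1qa, Csf1r, S100a8 and S100a9 were named after their values were seen. Alternatives were other scalings and filters, DESeq2 1.42.0, limma 3.58.1 on log2 of the deposited TPM plus 1 or 0.1, a length offset, a replicate block, gene classes removed, background subtracted and each library left out. The edgeR step was tested on simulated data, where it recovered 1.67% of 2-fold, 47.5% of 4-fold and 82% of 8-fold changes.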

Additional observations from a re-analysis of the deposited data

How the results depend on the processing

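Of the 18 alternatives, 17 left 0 members past the threshold; the fit without a filter on low counts called 2, Ighm (-4.03) and Cd79a (-5.78), which other alternatives could not fit except that Ighm had -4.63 without vehicle replicate 2. The count over all genes, 229 in the fit reported, was 1327 without a filter, 148 with 10 CPM in 2 libraries, 565 with DESeq2, 490 with limma on log2(TPM + 1), 362 without rRNA-like and mitochondrial genes, 111 after background subtraction and 657 at an adjusted p under 0.1. With each library left out in turn it ran from 36 to 499. With the replicate block it was 639; the numbers are not tied to a shared animal or day by the labels, only 2 pairs share a number (correlations of their deviations 0.171 and 0.148), and the block called no member. Lower calls made up 63.8% of the calls in the fit reported, 74.8% with upper-quartile scaling, 86.5% and 85.6% with limma, 49.3% with the block, 51.4% after background subtraction and 36.4% without vehicle replicate 2. Upper-quartile scaling moved the median of all genes to -0.14.

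Pigr was lower in all 17 alternatives with a value (-0.94 to -0.30) and Igkc in all 16 (-1.21 to -0.38). Jchain changed sign with upper-quartile scaling (-0.04) and without vehicle replicate 1 (-0.65), and ran from -0.65 to 1.30 with each of 4 libraries left out; without propyzamide replicate 1, which holds 21 of its 29 propyzamide counts, it had too few counts to be tested. Igha changed sign without propyzamide replicate 1 (-0.28), the lowest of the values with each library left out, of which the highest was 1.14. The cause was not tested. The log2 difference of the plasma cell members relative to Pigr, -0.15, was -0.73 without immunoglobulin constant genes and 0.57 for Jchain alone, and -0.46 to 0.02 with each library left out. That of Pigr relative to epithelial genes kept its sign in all 10 alternatives (-0.92 to -0.40), of which the sums without Krt8 and over all 12 genes were chosen after seeing the data. Depth limits Mzb1, Derl3, Tnfrsf17, Cd79a and Ighm, which were not tested in the fit reported.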
